A study of Triticum turgidum subsp. durum with 20 samples.

Results

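SVP1 and VRT2 are MADS-box transcription factor genes of the SVP (short vegetative phase) clade, and each is present in tetraploid durum wheat as an A-genome and a B-genome copy (homoeologs). The 4 gene models were taken by their identifiers from the 190381 gene models of the A genome, the B genome and the unanchored scaffolds. SVP-A1 is TraesCS6A02G313800 and SVP-B1 is TraesCS6B02G343900. VRT-A2 is TraesCS7A02G175200 and VRT-B2 is TraesCS7B02G080300, and VRT2 is also known as SVP2. On the IWGSC RefSeq v1.0 assembly, SVP-A1 lies on chromosome 6A from 550637111 to 550643896 and SVP-B1 on chromosome 6B from 605795238 to 605801747, both on the minus strand. VRT-A2 lies on chromosome 7A from 128826237 to 128833021 and VRT-B2 on chromosome 7B from 90189439 to 90195307, both on the plus strand. The counts cover the whole span of each model, introns included, and none of the 4 overlapped another gene model. Each copy had reads in all 20 libraries and passed the filter on low counts.

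RNA was sequenced from hand-dissected apices of the durum wheat variety Kronos at 5 stages of the Waddington scale, with 4 biological replicates per stage. The stages were W1 (vegetative shoot apical meristem), W2 (early double ridge), W3.0 (double ridge by the labels, glume primordium in the study's results), W3.25 (lemma primordium) and W3.5 (terminal spikelet). All plants were of the same variety and grown under 16 h of light and 8 h of dark at 23 °C by day and 17 °C by night, and all apices were taken in the same hour of the day. Each library was a pool of about 20 apices at W1 and W2 and of about 12 apices at the later stages, so the values describe pools and not single meristems, and stage changes together with the age of the plants and the number of apices pooled.

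SVP-clade proteins are MIKC-type MADS-domain factors that bind DNA as dimers and larger complexes. Arabidopsis SVP is known as a repressor of flowering that is active in the vegetative meristem. In wheat, by contrast, the study describes SVP1, VRT2 and SVP3 as promoters of the transition to the inflorescence meristem. Afterwards these genes are known to be repressed by VRN1 and related factors of the AP1/SQUA subclade. The comparison of stages here asks when, and by how much, transcripts of the 4 copies change across that transition.

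Libraries held 22229388 to 29655553 counts on gene models, and each copy had between 358 and 2870 reads per library. The tissue labels were checked against marker genes. AP1-A3, which marks the inflorescence, ranged from 0.202 to 0.464 TPM at W1 and from 30.7 to 31.9 TPM at W3.5. The 4 meristem markers were TtWUSb, both copies of TtCLV3 and a LFY copy. Their summed level was 4.70 to 6.10 TPM at W1 and 31.9 to 38.1 TPM at W3.0. Most of the W1 sum was the LFY copy, with a mean of 4.24 TPM. The other markers were near the floor at W1, so they say little about that label. TtWUSb had 0 to 1 read per W1 library, TtCLV3-A 3 to 5 and TtCLV3-B 5 to 11. TtWUSb was at most 0.403 TPM in any library and was not tested. Its model overlaps 2 others, and reads over the shared bases were not counted. Both photosystem I subunit IV genes, taken as markers of green tissue, were also detected in every library, with summed levels from 28.8 to 51.0 TPM at W1 and from 83.8 to 123 TPM at the later stages. TPM is the count per kilobase of gene span, scaled to the same sum in every library.

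All 4 copies were highest in the first 2 stages and fell from W2 onwards. The summed level of the 4 was 115 ± 2.22 TPM at W1 (SD, n = 4, as for all means below) and 118 ± 9.35 TPM at W2. W3.0 had 65.2 ± 8.20 TPM, W3.25 had 45.5 ± 3.92 TPM and W3.5 had 33.3 ± 3.07 TPM. SVP1 (A and B copies summed) went from 47.1 ± 0.536 TPM at W1 to 17.9 ± 1.28 TPM at W3.5. VRT2 went from 68.0 ± 1.96 TPM to 15.4 ± 1.96 TPM over the same stages, so that the gene with the higher summed level at W1 had the lower one at W3.5. These RNAs came from whole apices, in which fewer cells with the transcript and less transcript per cell cannot be told apart.

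SVP-A1 was at 28.1, 26.5, 26.6 and 26.9 TPM in the 4 W1 libraries and at 31.0, 28.8, 24.96 and 26.4 TPM in the W2 libraries, in the order of the replicate numbers. At W3.0 it was at 12.7, 16.0, 17.6 and 17.9 TPM. The W3.0 libraries all lay below every library of the earlier stages. It stood at 12.3, 9.51, 10.6 and 10.7 TPM at W3.25 and at 8.22, 7.99, 9.44 and 9.55 TPM at W3.5. The W3.25 libraries lay below those of W3.0, and the highest W3.5 library just reached the lowest W3.25 library.

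SVP-B1, the B-genome partner, was at 19.5, 20.0, 20.1 and 20.4 TPM at W1 and at 24.4, 23.8, 22.1 and 23.8 TPM at W2. It was the only copy with all W2 libraries above all W1 libraries in TPM, although the ranges overlapped once the library sizes were scaled by TMM, the normalization used in the tests. At W3.0 it was at 11.7, 12.97, 14.99 and 16.3 TPM. At W3.25 it was at 11.3, 8.08, 10.2 and 10.3 TPM, below the W3.0 libraries. At W3.5 it was at 9.10, 8.40, 9.84 and 8.99 TPM, within the range of W3.25.

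VRT-A2 was at 29.4, 27.3, 29.1 and 28.7 TPM at W1 and at 30.8, 27.5, 27.0 and 25.7 TPM at W2, with overlapping ranges. At W3.0 it was at 13.7, 14.7, 16.8 and 16.4 TPM. At W3.25 it was at 11.3, 9.75, 12.1 and 11.7 TPM, and at W3.5 at 7.09, 5.61, 7.45 and 8.10 TPM. From W2 onwards no library of a stage reached the range of the stage before it.

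VRT-B2 had the highest level of the 4 copies at W1, at 40.2, 38.5, 40.6 and 38.4 TPM, and was at 44.2, 39.4, 35.3 and 36.3 TPM at W2. At W3.0 it was at 16.4, 19.6, 21.2 and 21.9 TPM. At W3.25 it was at 13.4, 12.4, 14.1 and 14.3 TPM, and at W3.5 at 8.30, 7.14, 8.41 and 9.38 TPM. As for its A-genome partner, the ranges of successive stages were separate from W2 onwards.

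**Figure D1:**
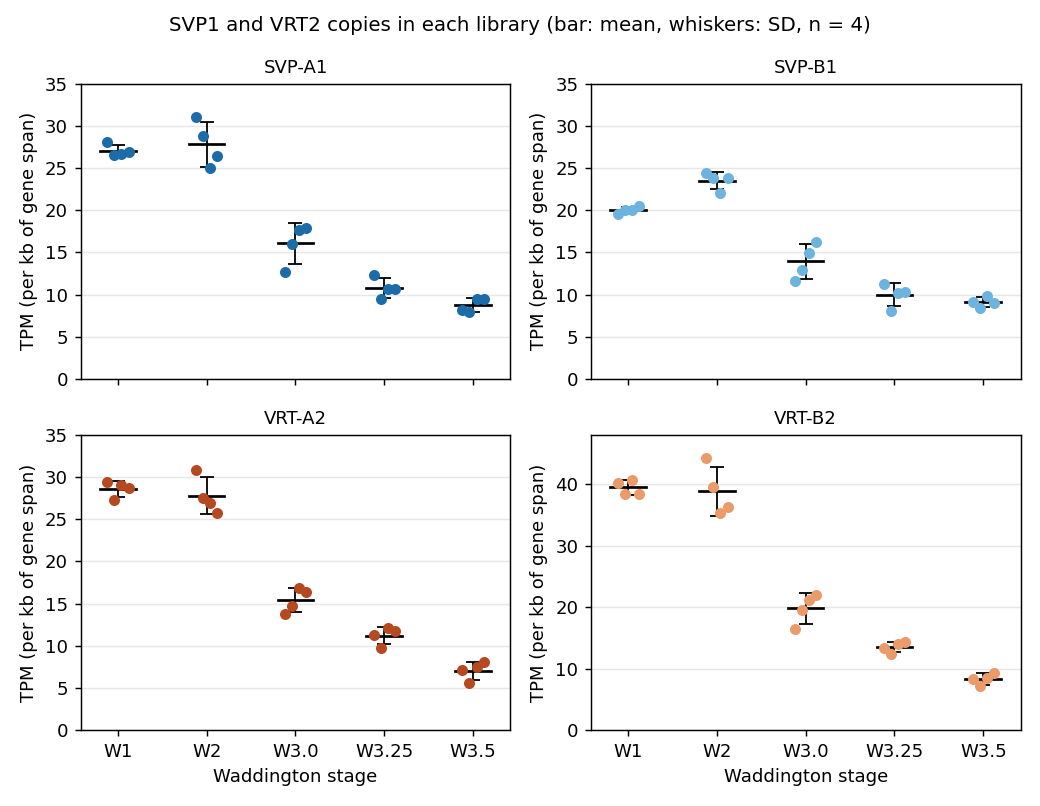
Level of each copy in TPM (vertical axes from 0, with a wider range for VRT-B2) by Waddington stage, with 1 point per library in the order of the replicate numbers, a bar for the mean and whiskers for the SD (n = 4). VRT-B2 goes from a mean of 39.4 TPM at W1 to 8.31 TPM at W3.5, and SVP-B1 from 20.0 to 9.08 TPM.

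The order of the 4 copies changed between the first and the last stage. At W1 the means were 39.4 ± 1.16 TPM for VRT-B2, 28.6 ± 0.932 TPM for VRT-A2, 27.0 ± 0.744 TPM for SVP-A1 and 20.0 ± 0.376 TPM for SVP-B1, and the ranges of VRT-A2 and SVP-A1 overlapped. At W3.5 the order was SVP-B1 with 9.08 ± 0.592 TPM, SVP-A1 with 8.80 ± 0.808 TPM, VRT-B2 with 8.31 ± 0.916 TPM and VRT-A2 with 7.06 ± 1.05 TPM. The ranges of neighbours in that order overlapped. Relative to its own W1 mean, the W3.5 mean was 45.4% for SVP-B1, 32.5% for SVP-A1, 24.7% for VRT-A2 and 21.1% for VRT-B2. On CPM (counts scaled by the TMM library size only) the same values were 37.8%, 27.1%, 20.6% and 17.6% with TMM factors that were lower at W1 (0.890 to 0.935) than at W3.5 (1.05 to 1.06). Levels of different genes, given per kilobase of span, also depend on how much of each span is intron.

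Changes from stage to stage were tested in a fit of all 20 libraries, and a gene was called when edgeR's quasi-likelihood test and the Wald test of DESeq2 passed 0.01 in the same direction, each with p adjusted by Benjamini-Hochberg over all gene models tested. Fold changes, standard errors (SE) and adjusted p-values given for single genes are those of edgeR. From W1 to W2, when the apex forms the first ridges, none of the 4 copies was called, whereas 22.9% of the 48336 gene models tested were called in either direction. The log2 fold change was -0.07 for SVP-A1 (SE 0.088, adjusted p = 0.556, edgeR) and 0.12 for SVP-B1 (SE 0.081, adjusted p = 0.263, edgeR). It was -0.16 for VRT-A2 (SE 0.082, adjusted p = 0.15, edgeR) and -0.13 for VRT-B2 (SE 0.080, adjusted p = 0.199, edgeR). The 95% intervals reached from -0.25 to 0.11 for SVP-A1, from -0.05 to 0.29 for SVP-B1, from -0.32 to 0.01 for VRT-A2 and from -0.30 to 0.03 for VRT-B2. With library totals alone in place of TMM, the median over all gene models moved up by 0.10 on the log2 scale. The sign of SVP-A1 then turned, to 0.03, SVP-B1 was at 0.22, and none of the 4 was called.

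The step from W2 to W3.0 was the largest of the 4 consecutive steps for every copy. Steps differ in length on the Waddington scale, this one being longer than those after W3.0, so their sizes are not rates. All 4 copies fell, while 11.6% of all gene models tested were called lower at this step. The log2 fold change was -0.86 for SVP-A1 (SE 0.090, adjusted p = 2.92e-08, edgeR), which is 1.81-fold lower at W3.0. SVP-B1 changed by -0.82 (SE 0.083, adjusted p = 1.6e-08, edgeR), VRT-A2 by -0.92 (SE 0.085, adjusted p = 3.16e-09, edgeR) and VRT-B2 by -1.04 (SE 0.082, adjusted p = 1.83e-10, edgeR), a 2.06-fold lower level. The ranges on TMM-scaled CPM did not overlap for 4 of 4 copies, against 16.4% of all gene models tested. Of the whole decrease in mean TPM between W2 and W3.5, this step held 61.7% for SVP-A1, 66.1% for SVP-B1, 59.6% for VRT-A2 and 62.4% for VRT-B2. Green-tissue transcripts were also lower at W3.0, with summed levels of 86.1 to 91.0 TPM against 101 to 123 TPM at W2, and the summed meristem markers were higher. Most of that sum was the LFY copy (29.0 ± 1.70 TPM at W3.0), which is also one of the 8 genes of the list given last, and TtCLV3-B was not called (adjusted p = 0.402 over the 5 stages, edgeR). Their part in the change of the 4 copies was not tested.

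From W3.0 to W3.25 all 4 copies fell again, at a step where 0.348% of the gene models tested were called lower. The log2 fold change was -0.60 for SVP-A1 (SE 0.094, adjusted p = 3.65e-04, edgeR) and -0.51 for SVP-B1 (SE 0.086, adjusted p = 9.95e-04, edgeR). It was -0.57 for VRT-B2 (SE 0.085, adjusted p = 2.09e-04, edgeR) and -0.48 for VRT-A2 (SE 0.088, adjusted p = 0.00201, edgeR), a fall of 1.40-fold. On the same scale all libraries of one stage lay apart from those of the other for 4 of 4 copies, and for 7.31% of all gene models tested in either direction. The call of VRT-A2 was lost when either of 2 W3.0 libraries or 1 W3.25 library was left out. Its log2 fold change was then -0.43 without W3.0 replicate 3 (adjusted p = 0.0156, edgeR), -0.45 without W3.0 replicate 4 (adjusted p = 0.0122, edgeR) and -0.43 without W3.25 replicate 2 (adjusted p = 0.0141, edgeR). The summed green-tissue markers (89.3 to 104 TPM at W3.25) and meristem markers (28.9 to 32.3 TPM) overlapped their ranges at W3.0. The LFY copy, most of the meristem sum, was separate, with 27.1 to 31.1 TPM at W3.0 and 24.2 to 26.1 TPM at W3.25. It was lower by 0.22 on the log2 scale and not called (adjusted p = 0.265, edgeR). TtWUSb, at 0.207 to 0.403 and 0.0358 to 0.130 TPM, was also separate. Both TtCLV3 copies overlapped. The part of these markers in the fall of the 4 copies was not tested.

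From W3.25 to W3.5 both VRT2 copies fell, whereas neither SVP1 copy was called. At this step 0.414% of the gene models tested were called lower. VRT-A2 changed by -0.73 on the log2 scale (SE 0.092, adjusted p = 3.62e-05, edgeR) and VRT-B2 by -0.76 (SE 0.090, adjusted p = 1.23e-05, edgeR), which is 1.65-fold and 1.70-fold lower. The values were -0.35 for SVP-A1 (SE 0.097, adjusted p = 0.0561, edgeR, and 0.0212 by DESeq2) and -0.19 for SVP-B1 (SE 0.089, adjusted p = 0.347, edgeR). The 95% intervals were -0.55 to -0.15 for SVP-A1 and -0.38 to -0.01 for SVP-B1. On TMM-scaled CPM the ranges were separate for SVP-A1 and both VRT2 copies, against 5.09% of all gene models tested. SVP-A1 was called at this step when only the 8 libraries of both stages were fitted (-0.35, adjusted p = 0.00743, edgeR). Summed green-tissue markers (83.8 to 101 TPM at W3.5) and meristem markers (23.8 to 31.3 TPM) overlapped their W3.25 ranges. Most of the meristem sum was the LFY copy, which overlapped, as did TtCLV3-B. The ranges of TtCLV3-A were separate, with 3.19 to 4.62 TPM at W3.25 and 0.939 to 2.77 TPM at W3.5. TtCLV3-A was lower by 1.09 on the log2 scale but missed the 0.01 threshold (adjusted p = 0.0373 in edgeR and 0.023 in DESeq2). Its part in the fall of the VRT2 copies was not tested.

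Between the first and the last stage all 4 copies fell, in a comparison where 26.9% of the gene models tested were called lower. The ranges were separate for 4 of 4, as for 27.5% of all gene models tested. The decrease was 3.69-fold for SVP-A1 (log2 fold change -1.88, SE 0.094, adjusted p = 3.68e-15, edgeR) and 2.64-fold for SVP-B1 (-1.40, SE 0.086, adjusted p = 2.26e-13, edgeR). It was 4.86-fold for VRT-A2 (-2.28, SE 0.090, adjusted p = 3.63e-17, edgeR) and 5.70-fold for VRT-B2 (-2.51, SE 0.088, adjusted p = 3.4e-18, edgeR). Of all gene models tested, 3.95% had a lower log2 fold change than VRT-B2 and 7.82% a lower one than SVP-B1. Over the 5 stages together, each copy changed in edgeR's F test at an adjusted p of 0.05, as did 63.1% of all gene models tested. The adjusted p in edgeR was 9.56e-19 for VRT-B2, 1.58e-17 for VRT-A2, 4.95e-16 for SVP-A1 and 5.53e-15 for SVP-B1, which placed them at ranks 150, 273, 558 and 843 of 48336 by p.

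**Figure D2:**
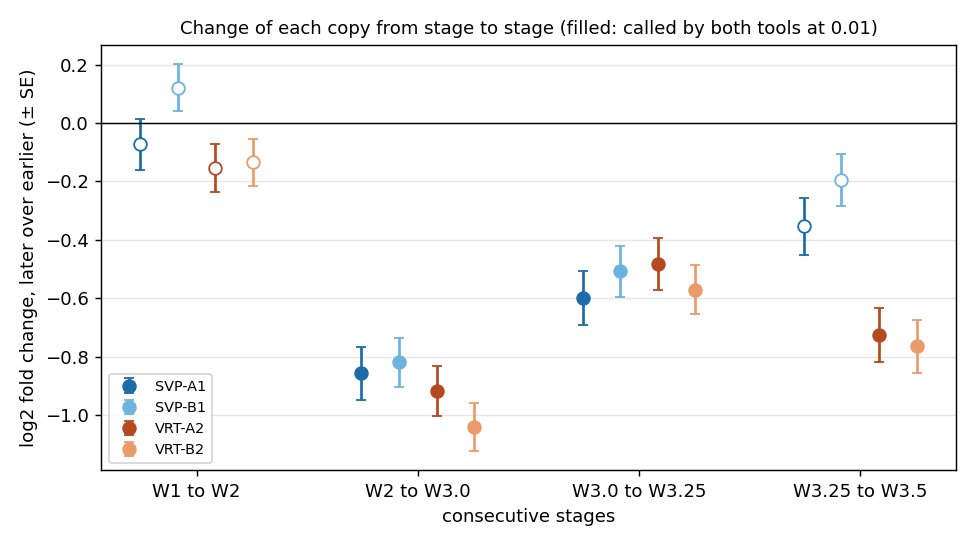
Log2 fold change (later over earlier stage, with SE) of each copy at the 4 consecutive steps, with filled points for changes called by both tools at 0.01 and open points for the others. The VRT2 copies fall by 0.73 and 0.76 at the last step, where the points of SVP-A1 and SVP-B1 are open.

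Falling at several successive steps was uncommon in the data as a whole. Lower levels were called at both W2 to W3.0 and W3.0 to W3.25 for 51 gene models (0.106% of those tested), among them all 4 copies. At all 3 steps from W2 to W3.5 lower levels were called for 18 gene models (0.0372%), among them VRT-A2 and VRT-B2. The place of VRT-A2 in both sets rests on its call from W3.0 to W3.25, which was lost when any of 3 libraries was left out. Ordered by their fall from W2 to W3.5, VRT-B2 stood 11th of the 18 with a log2 fold change of -2.38 and VRT-A2 12th with -2.13.

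The balance between copies and between the 2 genes shifted over the stages. It was measured as a log2 ratio within each library, per kilobase of span and with a pseudocount of 0.5 counts, so that the depth of a library cancels. A read that fits both copies equally well was not kept as uniquely aligned, so the level of such a ratio also depends on how far the copies differ in sequence. A share of lost reads that is the same at every stage cancels from the change of a ratio.

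SVP-A1 exceeded SVP-B1 at first and lost this lead. The log2 ratio of SVP-A1 to SVP-B1 was 0.53, 0.40, 0.41 and 0.40 in the W1 libraries. It was 0.35, 0.28, 0.18 and 0.15 at W2, 0.12, 0.31, 0.23 and 0.14 at W3.0, and 0.12, 0.23, 0.06 and 0.06 at W3.25. In every library of these stages the A copy was the higher one. At W3.5 the ratios were -0.15, -0.07, -0.06 and 0.09, so that the A copy was higher in 1 of 4 libraries. The share of SVP1 held by the A copy thus went from 57.4% ± 1.04 at W1 through 54.1% ± 1.55, 53.5% ± 1.46 and 52.0% ± 1.44 to 49.2% ± 1.69 at W3.5. The W1 and W2 ranges did not overlap, and neither did those of W1 and W3.5.

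In VRT2 the B copy was the higher one per kilobase of span in all 20 libraries, by less at the later stages. The log2 ratio of VRT-A2 to VRT-B2 was -0.45, -0.50, -0.48 and -0.42 at W1 and -0.52, -0.52, -0.39 and -0.50 at W2. It was -0.26, -0.41, -0.33 and -0.42 at W3.0, -0.25, -0.34, -0.22 and -0.29 at W3.25, and -0.23, -0.35, -0.18 and -0.21 at W3.5. The W3.5 libraries all lay above the W1 libraries. The B copy made up 58.0% ± 0.549 of VRT2 at W1 and 54.2% ± 1.28 at W3.5. Without the length term, VRT-A2 and VRT-B2 were closer, at a mean log2 ratio of -0.25 at W1 and -0.03 at W3.5, since the span of VRT-B2 is shorter (5869 against 6785 bp). In raw counts the order turned in W3.5 replicate 3, with 568 reads for VRT-A2 and 555 for VRT-B2, and replicate 4 had 502 and 503.

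VRT2 exceeded SVP1 at the first 4 stages and was below it at the last. The log2 ratio of VRT2 to SVP1, each with both copies summed, was 0.55, 0.50, 0.58 and 0.50 at W1 and 0.44, 0.35, 0.41 and 0.31 at W2. It was 0.31, 0.24, 0.22 and 0.17 at W3.0 and 0.07, 0.33, 0.33 and 0.31 at W3.25. At W3.5 it was -0.17, -0.36, -0.28 and -0.09, and thus below 0 in 4 of 4 libraries. Of the transcripts of the 4 copies, the share of VRT2 was 59.1% ± 0.640 at W1, then 56.5% ± 1.0, 54.0% ± 1.0 and 54.5% ± 2.21 at the following stages, and 46.1% ± 2.10 at W3.5.

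**Figure D3:**
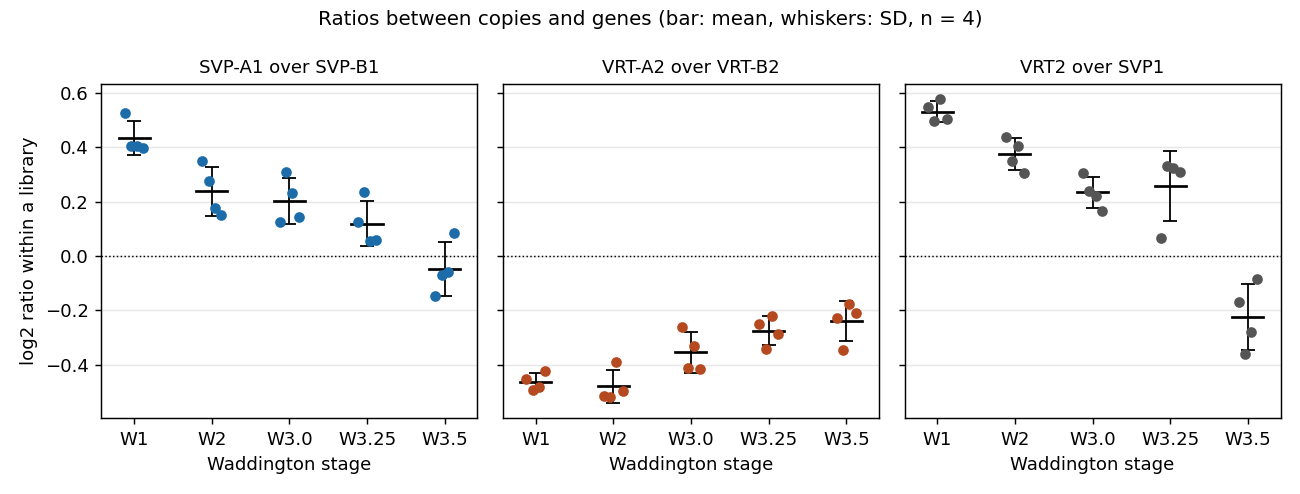
Log2 ratios within a library by Waddington stage for SVP-A1 over SVP-B1, VRT-A2 over VRT-B2 and VRT2 over SVP1, with 1 point per library, a bar for the mean and whiskers for the SD (n = 4), and a dotted line where both are equal. The third panel drops from a mean of 0.26 at W3.25 to -0.22 at W3.5.

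Over the 5 stages all 3 ratios changed in a permutation test of the F statistic with 100000 draws. The p was 3e-05 for SVP-A1 over SVP-B1 (4.5e-05 after Benjamini-Hochberg adjustment over the 3 ratios), 0.00033 for VRT-A2 over VRT-B2 (0.00033 adjusted) and 1e-05 for VRT2 over SVP1 (3e-05 adjusted), the last being the smallest that the draws allow. Between W1 and W3.5 the mean log2 ratio changed by -0.48 for SVP-A1 over SVP-B1, by 0.22 for VRT-A2 over VRT-B2 and by -0.76 for VRT2 over SVP1. In the two-sided exact permutation test of 4 against 4 libraries each of these gave p = 0.0286, the smallest that 70 arrangements allow, and 0.0286 after adjustment over the 3 ratios. For VRT-A2 over VRT-B2 this p rose to 0.0571 when any of the 4 W1 libraries was left out, with changes of 0.21 to 0.24. With 1 library fewer the test has fewer arrangements, so its p moves in coarser steps. None of the 12 consecutive steps passed 0.05 after adjustment over the 12 (smallest adjusted p = 0.114, exact permutation test). The largest of them was the change of VRT2 over SVP1 from W3.25 to W3.5, by -0.48 with separate ranges (p = 0.0286, 0.114 adjusted, exact permutation test). With 4 libraries against 4, a single step cannot pass 0.05 after this adjustment unless most of the 12 steps reach the smallest p, so the adjusted values do not show whether VRT2 and SVP1 changed alike or differently at the last step.

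The 4 copies also moved together among the replicates of a stage. W3.0 replicate 1, W3.25 replicate 2 and W3.5 replicate 2 were each the lowest of their stage for all 4 copies in TPM, and W2 replicate 1 was the highest for all 4. Across the 20 libraries, Pearson's r of log2 CPM ranged from 0.967 (SVP-B1 with VRT-A2) to 0.998 (VRT-A2 with VRT-B2). For deviations from the stage means, r was 0.914 between the VRT2 copies, 0.843 between the SVP1 copies and between 0.679 and 0.855 for a copy of one gene with a copy of the other. These correlations are descriptions over libraries that share stage, depth and pool of apices.

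VRT-A2 and VRT-B2 were each other's closest match among all gene models tested. SVP-A1 was the closest match of SVP-B1 (r = 0.989), whereas the closest match of SVP-A1 was VRT-B2 (r = 0.990), with SVP-B1 at rank 2. Outside the 4 copies, the gene model most like SVP1, by its mean r with both copies over the 20 libraries, was TraesCS2B02G034700 on chromosome 2B from 16868677 to 16871746 (mean r = 0.984). Its mean levels from W1 to W3.5 were 28.0 ± 1.45, 28.5 ± 2.85, 20.2 ± 1.65, 16.0 ± 1.07 and 14.6 ± 1.74 TPM. Like the SVP1 copies it was called lower at W2 to W3.0 (log2 fold change -0.57, adjusted p = 1.06e-06, edgeR) and at W3.0 to W3.25 (-0.36, adjusted p = 0.00918, edgeR) and at no other consecutive step.

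The gene model most like VRT2 was TraesCS4A02G002600 on chromosome 4A from 2402444 to 2412218 (mean r = 0.990). Its identity was not determined, and it may itself be another gene of the SVP clade. In the order of the stages its mean level was 12.4 ± 0.545, 13.8 ± 1.31, 3.93 ± 0.526, 2.26 ± 0.0753 and 1.31 ± 0.354 TPM. It is also among the 18 gene models called lower at all 3 steps from W2 onwards, with log2 fold changes of -1.88, -0.82 and -0.84. Its fall from W2 to W3.5 was -3.55 on the log2 scale, against -2.13 and -2.38 for the VRT2 copies. A mean r of at least 0.95 was reached by 94 gene models with SVP1 (0.194% of those tested) and by 117 with VRT2 (0.242%). Over the 5 stage means in place of the 20 libraries, other models came first, and the 2 named here were at ranks 26 and 79.

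Gene models next to the 4 copies both rose and fell. Among the 20 tested gene models nearest to each copy, 6 were called lower and 4 higher at W3.5 than at W1 around SVP-A1, 9 and 3 around SVP-B1, 9 and 4 around VRT-A2, and 5 and 6 around VRT-B2. Over all gene models tested, 26.9% were called lower and 22.3% higher in this comparison. The median log2 fold change of the neighbours was 0.06 around SVP-A1, -0.14 around SVP-B1, -0.56 around VRT-A2 and 0.00 around VRT-B2, against 0.02 over all gene models tested.

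A list of 8 MADS-box and LFY genes, set beside the 4 copies, rose between the first and the last stage. The list held 8 gene models, all tested: VRN-A1, VRN-B1 and AP1-A3 of the AP1/SQUA subclade, which promote the reproductive meristem; PI-A1 and a PI-like copy on chromosome 1B, of the B class that specifies inner floral organs; MADS32-A1 and MADS32-B1, of a clade found in grasses; and a LFY copy on chromosome 2B, the wheat relative of the Arabidopsis meristem identity factor LEAFY. Between W1 and W3.5, 8 of 8 rose, against 22.3% of all gene models tested. The median log2 fold change was 2.67 for the list, 0.02 for all gene models and -2.08 for the 4 SVP1 and VRT2 copies. The list was drawn from genes that the study of these same data names, and that study reports the PI pair as upregulated. The counts for the list are thus descriptions and not a test. From W1 to W2, where none of the 4 copies was called, 5 of 8 rose (8.30% of all gene models were called higher). From W2 to W3.0, where all 4 copies fell, 6 of 8 rose (7.64% of all). At the next step, from W3.0 to W3.25, 3 of 8 rose (0.474% of all), and at the last step 2 of 8 rose (0.288% of all). None of the 8 fell at a consecutive step. Over W3.0 to W3.5 together, 4 of 8 rose and 1 of 8, VRN-A1, fell, while 2.86% of all gene models tested were called higher and 3.41% lower.

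The 3 AP1/SQUA genes of the list had risen at W2, a step at which none of the 4 SVP1 and VRT2 copies was called. By the study's account, the VRN-A1 copy of Kronos is a spring allele with an intron deletion and is expressed earlier than VRN-B1. At W1, W2 and W3.0 the means of VRN-A1 were 8.12 ± 1.07, 22.3 ± 1.34 and 28.2 ± 1.21 TPM. VRN-B1 had 1.15 ± 0.296, 11.4 ± 2.02 and 24.3 ± 1.504 TPM at these stages, and AP1-A3 had 0.375 ± 0.118, 6.88 ± 1.26 and 23.4 ± 1.31 TPM. Their log2 fold changes from W1 to W2 were 1.35 (SE 0.060, adjusted p = 4.56e-15, edgeR), 3.22 (SE 0.120, adjusted p = 2.15e-16, edgeR) and 4.10 (SE 0.143, adjusted p = 5.72e-17, edgeR). From W2 to W3.0 they rose by a further 0.27, 1.01 and 1.70 on the log2 scale, the step at which the 4 SVP-clade copies fell by 0.82 to 1.04. At the 2 consecutive steps after W3.0 none of the 3 was called, whereas over W3.0 to W3.5 VRN-A1 fell by 0.41 on the log2 scale (SE 0.057, adjusted p = 1.12e-05, edgeR) and AP1-A3 rose by 0.33 (SE 0.081, adjusted p = 0.00788, edgeR). VRN-A1 was at -0.24 from W3.25 to W3.5 (adjusted p = 0.0207, edgeR, and 0.00195 by DESeq2), and DESeq2 alone or a threshold of 0.05 would call it lower.

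The LFY copy, like the AP1/SQUA genes, rose at the first 2 steps. Its means were 4.24 ± 0.526, 12.3 ± 1.76 and 29.0 ± 1.70 TPM at W1, W2 and W3.0, and 24.6 ± 2.32 TPM at W3.5. MADS32-A1 had its largest step from W2 to W3.0 (log2 fold change 1.78, SE 0.124, adjusted p = 1.82e-11, edgeR), from 32.0 ± 7.53 to 115 ± 17.7 TPM. MADS32-B1 rose at that step by 1.59 (SE 0.145, adjusted p = 2.33e-09, edgeR) and by 0.66 at the next (SE 0.123, adjusted p = 0.00295, edgeR). The B-class genes had their largest steps after W3.0, although the PI-like 1B copy was already called higher at W3.0 than at W1 (log2 fold change 0.43, SE 0.123, adjusted p = 0.00424, edgeR). PI-A1 was 6.77 ± 0.413 TPM at W3.0, 13.8 ± 1.95 TPM at W3.25 and 33.2 ± 4.34 TPM at W3.5, with log2 fold changes of 1.01 and 1.21 at the steps between. The PI-like 1B copy rose by 0.73 and 1.003 at these steps. Its model overlaps 2 others, and reads over the shared bases were not counted.

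**Figure D4:**
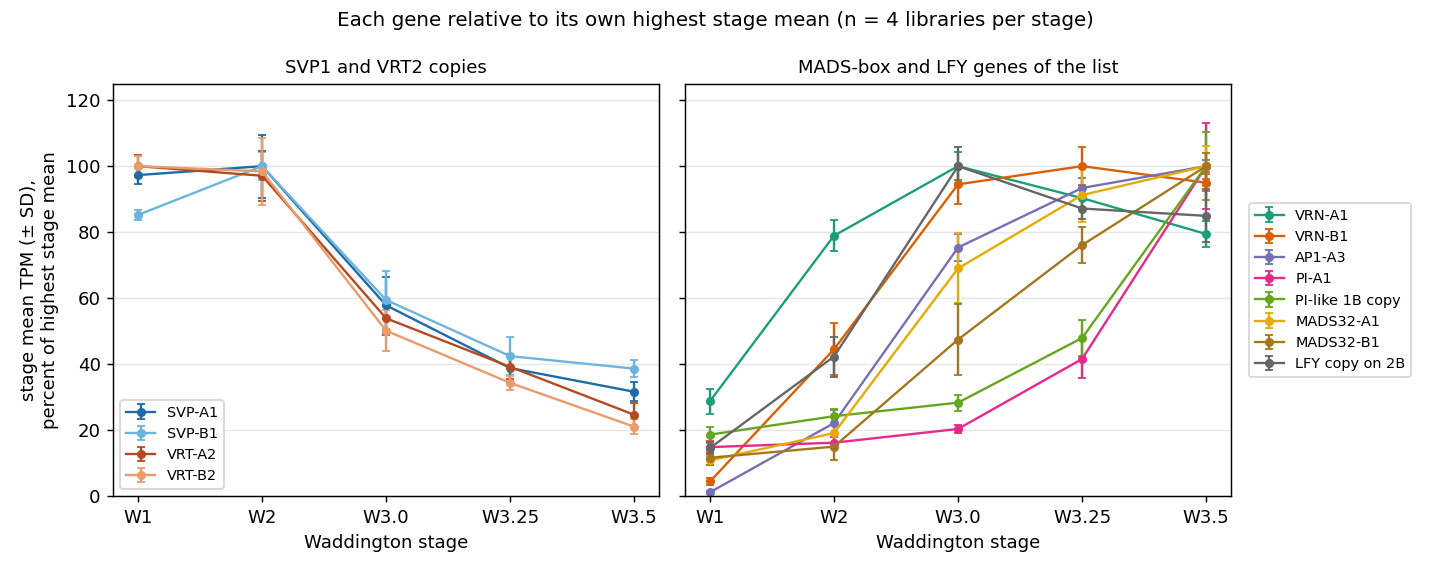
Stage mean TPM of the SVP1 and VRT2 copies (left) and of the 8 genes of the list (right) as a percentage of the gene's own highest stage mean, with whiskers for the SD (n = 4). At W3.5 the 4 copies are between 21.1% and 38.7% of their highest mean, while the genes of the list are between 79.5% and 100%.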

How the data were processed

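RNA from 20 pools of Kronos apices was sequenced in single reads of 100 bp. After trimming (Fastp) and alignment (STAR 2.7.5), the authors counted reads with featureCounts 2.0.0, unstranded and at a mapping quality of at least 40, and deposited the raw counts. A read that touched several models was not counted. D-genome models (79047, each listed at 0) were not used.

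From these counts, TPM was computed with the gene span as length. Models were kept by filterByExpr (minimum count 10, minimum total 15) and tested in R 4.3.3 with edgeR 4.0.16 (TMM, quasi-likelihood) and DESeq2 1.42.0 (Wald), with stage as the factor and 15 residual degrees of freedom. Standard errors are the absolute log2 fold change over the square root of edgeR's F. Ratios and figures used Python 3.11.15, numpy 2.4.6, pandas 2.3.3 and matplotlib 3.10.9. Likeness was Pearson's r on the log2 CPM scale (prior count 2). The pipeline was tested on simulated data.

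Library totals were 22229388 to 29655553 counts. Samples were grouped by title, and replicates are separate pools of apices. Genes named are the 4 copies, the MADS-box and LFY genes and markers whose identifiers the study names, and the model most like each gene. Other MADS-box genes, among them SVP3 of the same clade, were not analysed by name. Which genes the models most like SVP1 and VRT2 are was not determined. The copies and lists were chosen with earlier results of these data known. Alternatives changed the tool, normalization, filter, libraries fitted, threshold, block, pseudocount (0.1 or 2), length term and prior count (0.5), and left out each library. Library totals without scaling, and W1 against W3.5 for ratios, were added after seeing the data.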

Additional observations from a re-analysis of the deposited data

Results flagged for a closer look

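In 35 groups of 4 libraries (the TPM of the 4 copies and the 3 log2 ratios at each stage), 3 libraries lay far from the other 3 of their group, by a gap that took up most of the group's range (Dixon's ratio above its 95% critical value). Chance alone flags about 1 in 20 such groups. The log2 ratio of SVP-A1 to SVP-B1 was 0.526 in W1 replicate 1, above the other W1 libraries. The log2 ratio of VRT-A2 to VRT-B2 was -0.391 in W2 replicate 3, above the other W2 libraries. The log2 ratio of VRT2 to SVP1 was 0.0667 in W3.25 replicate 1, below the other W3.25 libraries and above all W3.5 libraries. No group of TPM values of a single copy was flagged.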

How the results depend on the processing

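The 4 copies had 560 values at the consecutive steps and from W1 to W3.5, under all alternatives tried. These are not separate checks. A left-out library of another stage hardly moved a step, and the single-tool and threshold settings reused the main fit. Of the 560 values, 556 kept their call. The 4 others were the 3 left-out libraries that ended the call of VRT-A2 from W3.0 to W3.25 and the fit of only the 2 stages, which called SVP-A1 from W3.25 to W3.5 (-0.3521, adjusted p = 0.00743, edgeR). Leaving out each library gave -0.53 to -0.43 for VRT-A2 from W3.0 to W3.25 and 0.20 to 0.26 for the change of VRT-A2 over VRT-B2 from W1 to W3.5, whose exact permutation p was then 0.0286 or 0.0571. Leaving out a library gave ranges of -0.40 to -0.29 for SVP-A1 and -0.28 to -0.13 for SVP-B1 from W3.25 to W3.5, and no call there. The replicate numbers did not pair the samples. Between libraries of different stages with the same number, r of deviations had a median of 0.0021 (-0.058 to 0.102). With different numbers the median was -0.0048 (-0.085 to 0.107). By mean r with the libraries of each of the 4 numbers, 5 of 20 libraries were most like those of their own number. With the replicate block no call of the 4 copies changed, and SVP-A1 was at -0.35 from W3.25 to W3.5 (adjusted p = 0.0706, edgeR). In the list of 8 genes, DESeq2 alone and a threshold of 0.05 each gave 1 gene, VRN-A1, that fell from W3.25 to W3.5, against 0. Library totals without scaling moved the median of all gene models on the log2 scale by 0.10 between W1 and W2 and 0.20 between W1 and W3.5, and the fall of VRT-B2 from W1 to W3.5 was then -2.31. Over stage means, the r of the model most like SVP1 was 0.9959 and of the model most like VRT2 0.9943, with other models ahead of them. Without the length term the level of the VRT-A2 to VRT-B2 ratio moved at all 5 stages and that of VRT2 to SVP1 at 3 of 5. The p-values cover the spread between pools of apices only.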
